A study of Mus musculus with 4 samples.

Results

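Gsta4, Prdx2 and Duox1 are redox and detoxification genes, measured here in brown preadipocytes, cells that go on to form brown fat, from control mice and from mice in which EP3, a prostaglandin E2 receptor, was deleted. They were taken as the genes of this kind whose transcript accession stood beside a probe on the array, which made 3 of the 45 genes that could be named and 3 of 60691 distinct array probes. A list of 70 genes of glutathione transfer, glutathione synthesis, peroxide removal, superoxide handling and NADPH oxidation held the same 3 genes and no other with a named probe. RefSeq's mouse genes (assembly GRCm38.p6) place Gsta4 on chromosome 9, Prdx2 on chromosome 8 and Duox1 on chromosome 2. Each was read by 1 probe, A_51_P112223 for Gsta4 (NM_010357), A_51_P147207 for Prdx2 (NM_011563) and A_51_P475138 for Duox1 (NM_001099297), and each probe was spotted 10 times on every array.

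Reactive oxygen species arise in cells from mitochondria and from dedicated oxidases, and they attack membrane lipids as well as acting as signals. Duox1 is a dual oxidase, a membrane NADPH oxidase that makes hydrogen peroxide and is best known from thyroid and airway epithelium. Prdx2 is a cytosolic peroxiredoxin that reduces hydrogen peroxide with electrons from thioredoxin. Gsta4 is an alpha-class glutathione transferase that conjugates glutathione to 4-hydroxynonenal, a reactive aldehyde left by lipid peroxidation. N6-methyladenosine (m6A) is a methyl mark on adenosines of RNA that is read by proteins acting on splicing, translation and decay.

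The control pool came from EP3F/F mice, whose EP3 alleles are floxed, and the EP3 conditional knockout (cKO) pool from Myf5CreEP3F/F mice, which carry the same floxed alleles and Cre driven by Myf5. Both pools were Lin-CD29+CD34+Sca1+ cells sorted from mice of 8 weeks, labelled as male for the IP samples. Each genotype was 1 pool of approximately 30 mice, so there was 1 sample per group and no test of genotype. Cre under Myf5 deletes EP3 in Myf5 lineage cells, and cells of other lineages in the sort keep it. Total RNA was split with an antibody against m6A into a bound fraction, named IP and labelled with Cy5, and an unbound supernatant, named Sup and labelled with Cy3, and both fractions of a genotype were hybridised to 1 array.

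The median processed signal over the 43838 usable probes was 411 to 474 in the 4 samples, and 76.3% to 82.3% of array spots were well above background. Of 9 markers of brown preadipocytes, 0 had a named probe, so the cell type label could not be set against these markers, and Mbp was the 1 named gene among 23 markers of other cell types. EP3 itself, encoded by Ptger3, was not among the named genes, so its loss is not checked here. In what follows each signal was divided by its channel's median, the m6A ratio is log2(IP/Sup), abundance is log2(IP + Sup), and a difference is cKO minus control. The SD given is that between repeated spots of 1 probe, a technical spread that holds nothing of the variation between mice or pools. For a signal or a ratio, these are the spots of 1 array. For a difference, each cKO spot was set against the control spot at the same array position. Its SD and its counts of spots above or below 0 are over these paired spots.

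With each channel scaled to its median, Gsta4 was higher in cKO in the unbound fraction, while its difference in the bound fraction was within its spot SD. The size in IP depended on the scaling, with -0.56 in IP and 0.62 in Sup under the authors' constants and 0.52 and 0.59 under the ERCC channel medians. Its processed signal in Sup was 2816 ± 146 (SD, n = 9 spots) in control, with spots from 2648 to 3034, and 3878 ± 102 in cKO, with spots from 3712 to 4049. Its signal in IP was 1832 ± 92.1 in control, with spots from 1708 to 1991, and 1540 ± 62.9 in cKO, with spots from 1443 to 1612. In the processed signal, before median scaling, the spots of the genotypes did not overlap in either fraction. Sup was higher and IP lower in cKO. The IP channel median was also lower in cKO, at 413 against 474 in control. Overlap was counted only for the 3 genes, here and below, so no share over all probes stands beside it.

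After each channel was divided by its median, the Sup difference of Gsta4 was 0.65 ± 0.05 (SD, n = 9 spots), 1.57-fold higher in cKO, and all 9 spots lay above 0. Its IP difference was -0.05 ± 0.09, with 7 spots below 0 and 2 above, so that the scaled IP signals of the genotypes overlapped. The Sup difference of Gsta4 ranked 41 of 41 usable named genes, the top, and 96.6% of all usable probes lay lower. None of the 3 genes, a count of 0, reached 2-fold in Sup, as 1.62% of usable probes did, and 4.48% of usable probes were at least 1.5-fold higher there, as Gsta4 was under the reported scaling and 9 of 12 alternatives. It fell short with no median scaling (0.46), the ERCC channel means (0.44) and loess with Aquantile (0.54).

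**Figure D1:**
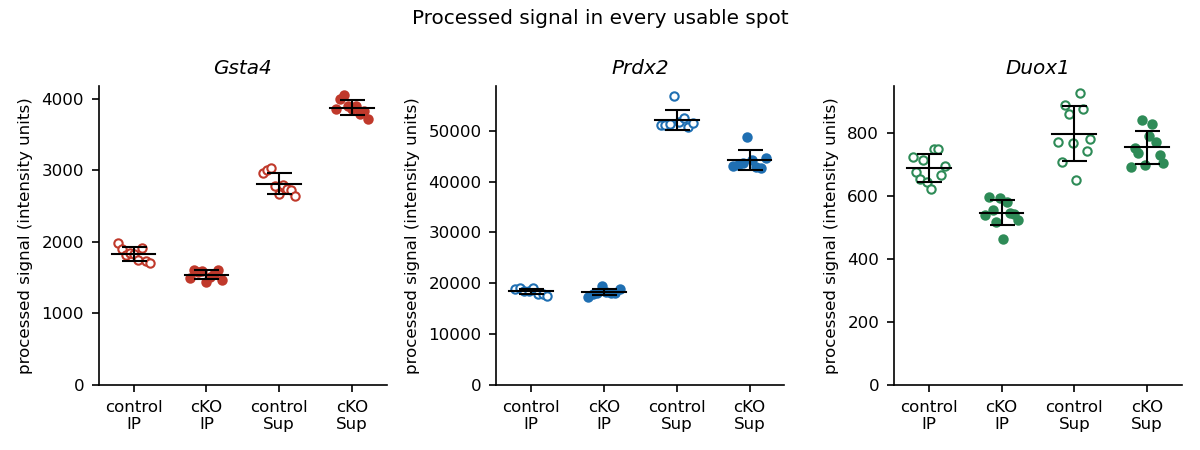
Processed signal (linear intensity units, vertical axis) of every usable spot of Gsta4, Prdx2 and Duox1 in the 4 samples, with open points for control and filled points for cKO, and lines at the mean ± SD over spots. The Gsta4 spots in Sup lie at 2648 to 3034 in control and at 3712 to 4049 in cKO.

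The m6A ratio of Gsta4 was -0.64 ± 0.07 (SD, n = 9 spots) in control and -1.34 ± 0.05 in cKO. The spots ran from -0.76 to -0.54 in control and from -1.43 to -1.27 in cKO and did not overlap. Overlap was not counted for the other named genes, and the median spot SD of the m6A difference over named genes was 0.11. With each channel at its own median, Sup exceeded IP 1.56-fold in control and 2.53-fold in cKO. Which fraction was higher in control depended on the scaling, since the ratio ran from -1.23 to 0.20 over the 12 alternatives and turned above 0 with the SPINKEIN spots and the ERCC channel means. The m6A difference was -0.70 ± 0.09, with all 9 spots below 0, which was the sixth lowest of 41 usable named genes. Of all usable probes, 8.18% had a lower difference, and 11.3% were at least 1.5-fold lower, as Gsta4 was. At the 2-fold rule 5.28% of usable probes were called in the m6A difference, and 0 of the 3 genes.

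With each channel at its own median, the abundance of Gsta4, from both fractions together, was 1.33-fold higher in cKO. On the log2 scale this was 0.41 ± 0.05 (SD, n = 9 spots), with all 9 spots above 0. The size depended on the scaling, which sets the weight of each fraction in the sum. Over the 12 alternatives it ran from 0.098 with the ERCC channel means to 0.57 with the ERCC channel medians. Here 88.3% of usable probes lay lower, and 3.6% of usable probes reached 2-fold in either direction, against 0 of the 3 genes. An m6A difference at least 1.5-fold lower together with an abundance above 0, as in Gsta4, was found for 1.67% of usable probes. An IP value below 0 with Sup at least 1.5-fold higher was found for 0.509%, a condition Gsta4 met with an IP difference smaller than its spot SD. Both joint conditions match the values of Gsta4 itself, so their shares do not measure how rare its pattern is. In a bulk sample, more RNA per cell and more cells that hold the RNA cannot be told apart.

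Prdx2 was the member with the lowest m6A ratio in control. Its processed signal in IP was 18397 ± 549 (SD, n = 8 spots) in control and 18276 ± 648 in cKO, with overlapping spots. In Sup it was 52104 ± 1969 in control, with spots from 50779 to 56806, and 44159 ± 1942 in cKO, with spots from 42694 to 48662. The Sup spots did not overlap before scaling and did after it, since the channel median of Sup was also lower in cKO.

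The m6A ratio of Prdx2 was -1.52 ± 0.07 (SD, n = 8 spots) in control and -1.28 ± 0.03 in cKO, so Sup exceeded IP 2.87-fold and 2.43-fold at this scaling; the control ratio stayed below 0 under all 12 alternatives, from -2.11 to -0.68. It was the lowest ratio of 41 usable named genes in control, while 7.64% of all usable probes lay lower still. IP carried Cy5 and Sup Cy3 on both arrays, so fraction and dye cannot be told apart in a ratio ranked over different probes. In control 17.1% of usable probes had a ratio of -1 or less, and in cKO 14.3%. The m6A difference of Prdx2 was 0.24 ± 0.07, with all 8 spots above 0, made up of an IP difference of 0.19 ± 0.08 and a Sup difference of -0.05 ± 0.03. Its abundance difference was 0.01 ± 0.03, with 5 spots above 0 and 3 below. Under 7 of 12 alternatives it passed the spot SD, and it ran from -0.25 with loess and Aquantile to 0.095 with the ERCC channel medians, turning below 0 under 5.

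The sign of the Prdx2 m6A difference turned with the correction of the signals. Pixel medians minus local background, with no dye normalisation, gave 6502 ± 169 (SD, n = 8 spots) in control IP and 4585 ± 46.2 in cKO IP. In Sup they gave 10997 ± 343 in control and 13322 ± 155 in cKO, which is higher in cKO where the processed signal was lower. Scaled to their medians these values left an m6A difference of 0.12, normexp left -0.15 and normexp with loess and Aquantile 0.36. Among the 8 unflagged spots of Prdx2, the one at row 52 and column 10 had the highest processed Sup signal on both arrays, 56806 and 48662, while its pixel median of 10409 was the lowest of the 8 in control.

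**Figure D2:**
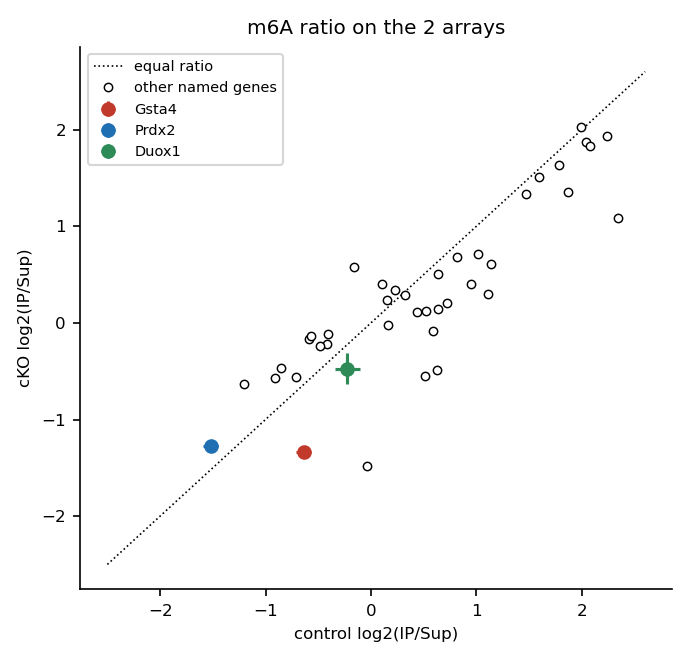
m6A ratio, log2(IP/Sup), in control (horizontal axis) and in cKO (vertical axis) for the 41 usable named genes, with the 3 redox and detoxification genes in colour and bars for the SD between spots. Gsta4, at -0.64 and -1.34, and Duox1 lie below the dotted line of equal ratio, and Prdx2, at -1.52 and -1.28, lies above it.

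Duox1 had a lower processed signal in cKO IP, where the channel median was also lower. After median scaling its spots overlapped between the genotypes in both fractions. Its processed signal in IP was 688 ± 44.4 (SD, n = 10 spots) in control, with spots from 620 to 749, and 546 ± 39.8 in cKO, with spots from 462 to 596, which did not overlap. In Sup it was 796 ± 87.6 in control and 753 ± 52.4 in cKO, with overlapping spots. Pixel medians minus local background in Sup were 167 ± 23.2 in control and 216 ± 15.0 in cKO, which is higher in cKO. All 10 spots were well above background in every sample, and the median spot stood 13.9-fold over local background in control IP, 8.84-fold in cKO IP, 8.87-fold in control Sup and 11.2-fold in cKO Sup.

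The m6A ratio of Duox1 was -0.22 ± 0.12 (SD, n = 10 spots) in control and -0.47 ± 0.16 in cKO, with spots from -0.46 to -0.08 and from -0.78 to -0.24, which overlapped. The m6A difference was -0.25 ± 0.21, with 8 spots below 0 and 2 above, and single spots ran from -0.69 to 0.04. Its IP difference was -0.14 ± 0.12, its Sup difference 0.11 ± 0.16 and its abundance difference 0.00 ± 0.10. With no median scaling the IP difference was -0.34, and over the 12 alternatives it ran from -0.65 to 0.43. Like the other two genes it had IP and Sup on opposite sides of 0 at this scaling, as 36.8% of usable probes did, and under 9 of 12 alternatives. In IP 7.89% of usable probes reached 2-fold, against 0 of the 3 genes, and 32.4% of usable probes lay lower than Duox1. The abundance difference of Duox1 passed its spot SD under 4 of the 12 alternatives, from -0.27 with the ERCC channel means to 0.20 with their medians.

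**Figure D3:**
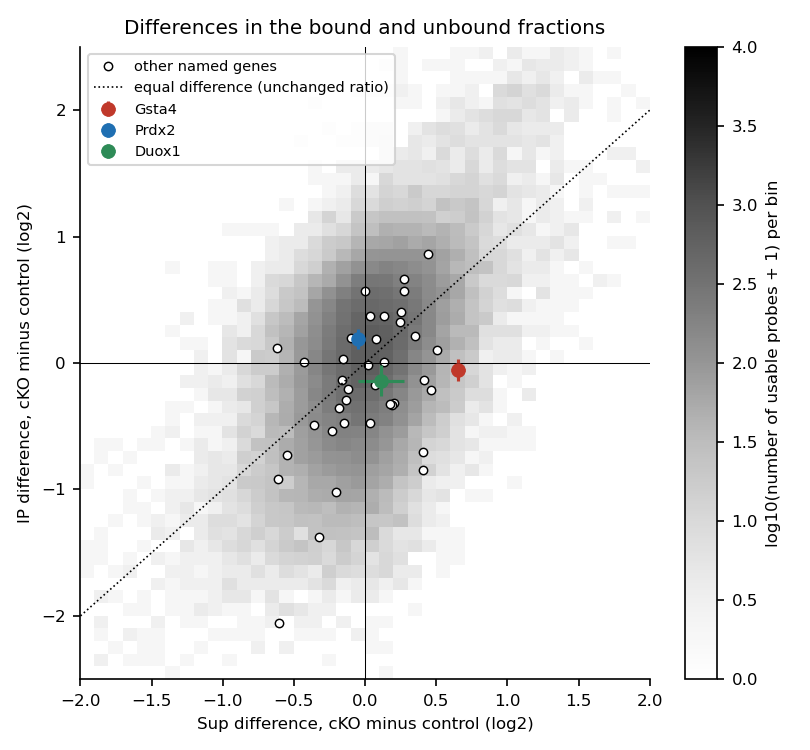
IP difference (vertical axis) against Sup difference (horizontal axis), cKO minus control in log2, for usable probes (grey, number per bin on a log10 scale), 38 other named genes (open circles) and the 3 redox and detoxification genes in colour with the SD between spots; 118 probes beyond the axes are not drawn. Gsta4 lies at 0.65 in Sup and -0.05 in IP, to the right of every other named gene.

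The m6A difference depended on the control ratio over the whole array, which places the 3 genes differently. Among 10 equal groups of usable probes ordered by the control ratio, the median m6A difference went from 0.36 in the lowest group to -0.31 in the highest. Prdx2 fell in the lowest group, where the quartiles were 0.11 and 0.64 and 37.5% of probes lay below it, so its difference was within the middle of its group. Gsta4 fell in the third group, with a median of 0.17 and quartiles of -0.07 and 0.41, and 2.90% of that group lay below it. Duox1 fell in the fifth group, with a median of 0.05, and 21.0% of that group lay below it. The control ratio enters both quantities, which are therefore not independent of each other.

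**Figure D4:**
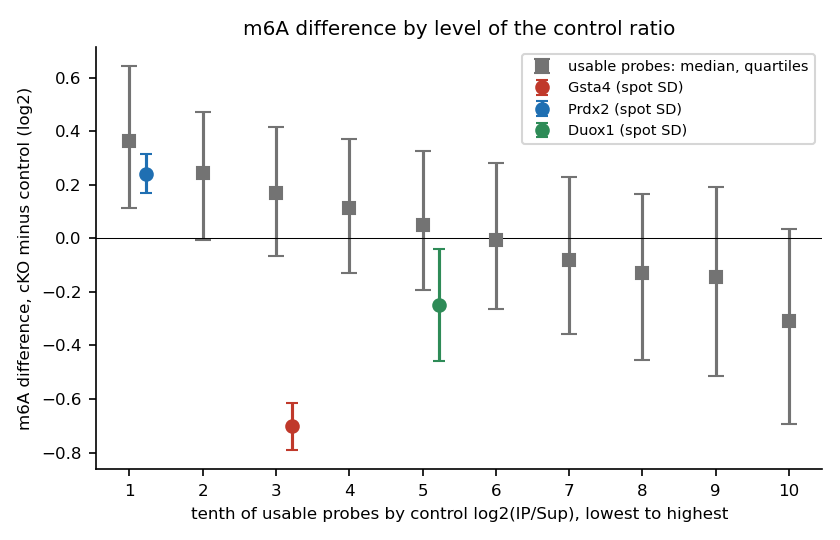
m6A difference, cKO minus control in log2 (vertical axis), in 10 groups of usable probes from the lowest to the highest control ratio (horizontal axis), with grey squares at the median and bars at the quartiles, and the 3 redox and detoxification genes with the SD between spots. Gsta4, at -0.70, lies below the lower quartile of its group, and Prdx2, at 0.24, lies between the quartiles of its own.

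By the distance over the IP and Sup differences, a likeness over 2 values, the genes nearest to Gsta4 were Gsdmd at 0.21, Mbp at 0.25 and H2-Q7 at 0.25. Gsdmd, the gene of the pore protein of pyroptosis, had a Sup difference of 0.51 and an IP difference of 0.10. Mbp, the myelin basic protein gene, had 0.46 in Sup and -0.21 in IP, and the class I histocompatibility gene H2-Q7 had 0.42 and -0.13. Mbp stood next above Gsta4 in the order of the m6A difference, at -0.67 ± 0.22 (SD, n = 8 spots), and Bambi, a decoy receptor of TGF-beta signalling, next below at -0.81. The m6A differences of Gsta4 and Mbp lay closer together than the spot SD of either gene. Their abundance differences lay further apart than that, at 0.41 ± 0.05 (SD, n = 9 spots) for Gsta4 and 0.095 ± 0.15 (SD, n = 8 spots) for Mbp, which was within its own spot SD of 0. In abundance the neighbours of Gsta4 were Lhx1 at 0.31 and Spats1 at 0.42.

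The gene nearest to Prdx2 was Gamt, an enzyme gene of creatine synthesis, at a distance of 0.05, followed by Mzb1 at 0.13 and Chgb at 0.19. In the m6A difference Prdx2 stood between Chgb at 0.19 and Olfr166 at 0.25, and in abundance between Duox1 at 0.00 and Gamt at 0.03. Nearest to Duox1 were Taf1a at 0.05, Hyal3 at 0.15 and Olfr1307 at 0.15. Alkbh4 at -0.30 and Taf1a at -0.25 stood beside Duox1 in the m6A difference, closer than its spot SD of 0.21, and in abundance it stood between Olfr1307 at 0.00 and Prdx2.

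Against 5 genes of fat oxidation, peroxisomes, creatine and lipoproteins, Gsta4 had a lower m6A difference and a higher Sup difference than each. Their m6A differences were -0.32 for Acaa2, -0.13 for Cpt1a, 0.30 for Gamt, 0.30 for Apoe and 0.57 for Pex11a, and their Sup differences ran from -0.36 for Cpt1a to 0.27 for Apoe. Their median m6A difference was 0.30, against 0.04 over all usable probes. That of the 3 redox and detoxification genes, -0.25, was the value of Duox1, and Gsta4 at -0.70 and Prdx2 at 0.24 lay on opposite sides of 0. Median abundance differences were 0.03 and 0.01, against 0.05 over all usable probes. Actb, the beta-actin gene, at 0.63, was above Gsta4 in abundance, and the glycolytic gene Gpi1, at 0.27, was below it, with m6A differences of 0.42 and -0.14. Control spots named for Gapdh and Pgk1 gave m6A differences from -1.28 to 0.35 and Sup differences from -0.06 to 0.52. The differently named sets of Pgk1 spots lay 0.52 apart in the m6A difference, which is not a spread between repeated spots. The spot SD of 0.09 for Gsta4 holds only the spread between repeated spots.

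The signs of the m6A, Sup and abundance differences of Gsta4 held across the processing of the signals, while that of its IP difference did not. Its m6A difference was below 0, and its Sup and abundance differences above 0, under all 12 alternatives. The alternatives reuse the same arrays, and several keep the same processed signals, so they are not independent checks. With the ERCC channel medians the m6A difference was within its spot SD of 0.09. Its place in the order of usable probes, which a scaling constant cannot move, was stable, with 4.05% to 11.7% of probes lower for the m6A difference and 93.6% to 98.3% lower for Sup. The sizes were less stable, since the authors' constants gave -1.18 for the m6A difference, past 2-fold, and the channel medians of the ERCC spike-in spots gave -0.07. For Prdx2 the place in the m6A order ran from 29.05% to 84.6%, and the sign turned under 2 of 12 alternatives, the authors' constants (-0.24) and normexp (-0.15). For Duox1 the place ran from 22.1% to 29.3%, with the sign turned under 1, the ERCC channel medians (0.39). The authors' deposited table, whose centring is unknown, gave Gsta4 -0.05 in control Sup, 0.56 in cKO Sup, -1.09 in control IP and -1.65 in cKO IP, in log2.

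**Figure D5:**
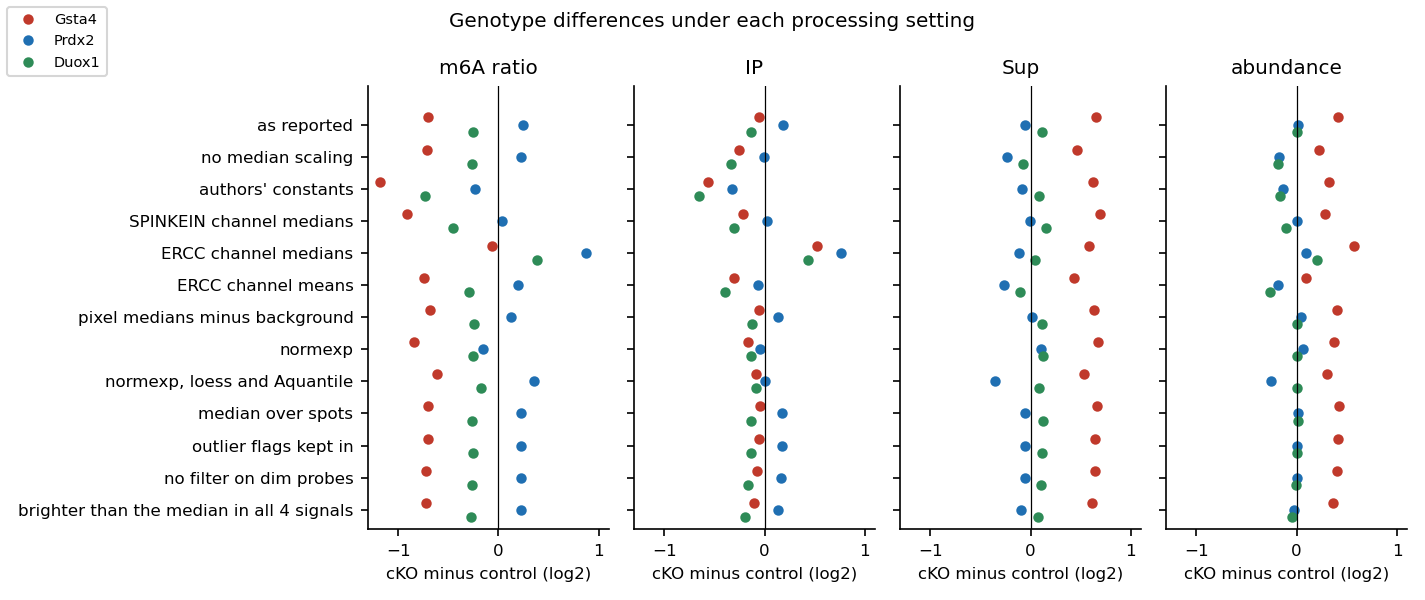
Differences, cKO minus control in log2 (horizontal axes), of the m6A ratio, IP, Sup and abundance for Gsta4, Prdx2 and Duox1 under the reported processing and 12 alternatives (rows). The Gsta4 points lie right of 0 for Sup and abundance and left of 0 for the m6A ratio in every row, while Prdx2 lies on both sides of 0 in each panel.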

How the data were processed

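The members and lists were chosen with earlier results of these data known. Per the file headers, Agilent Feature Extraction 11.0.1.1 read both arrays; the deposited processed signals are an intensity on a linear scale, background-subtracted and dye-normalised within the array. The deposited files also hold pixel medians, another intensity, and flags. The authors' deposited table holds log2 values, which equalled log2 of the processed signal minus 1 constant per channel within 0.01 for at least 99.98% of 43838 probes; no source used here gives the origin of the constants, so the centring is unknown. Red (Cy5) was IP and green (Cy3) Sup per the labels.

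Spots with an outlier flag in any channel of either array were left out, which removed 1 of 10 for Gsta4, 2 of 10 for Prdx2 and 0 for Duox1. A probe was usable when at least 0.5 of its spots were unflagged and well above background in all 4 samples (43838 of 60691, 72.2%). Saturated spots numbered 0. Log2 values were averaged over spots, and each channel was scaled to its median over usable probes. Accessions of 45 of 50 named probes matched a symbol. With 1 array per genotype no test was run and no p-value computed; the size rule was 2-fold, with 1.5-fold as an alternative. Precision is limited by the number of arrays. Each genotype was read on its own array, so a difference between genotypes cannot be told apart from a difference between arrays. The calculation was tested on simulated data. The text names the members, other listed genes, the 3 nearest genes by IP and Sup differences and the neighbours in order; a planned likeness over the 4 signals was dropped because levels of different probes are not comparable. Probe sequences and probe positions are not used here. Sample columns without a mapped sample numbered 0. Normexp (offset 50), loess and Aquantile used limma 3.58.1 in R 4.3.3; other steps used Python 3.11.15, numpy 2.4.6 and pandas 2.3.3.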

Additional observations from a re-analysis of the deposited data

Results flagged for a closer look

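With median scaling, the bound and unbound fractions of each of the 3 genes lay on opposite sides of 0 between genotypes, as 36.8% of usable probes did. The IP difference minus the Sup difference was -0.70 for Gsta4 and -0.25 for Duox1, where IP was lower and Sup higher in cKO, and 0.24 for Prdx2, where IP was higher and Sup lower. The IP difference of Gsta4 (-0.05) was smaller than its spot SD, as was the Sup difference of Duox1 (0.11). The opposite sides held under 11 of 12 alternatives for Gsta4, 8 for Prdx2 and 9 for Duox1. Both fractions lay on 1 side for Gsta4 with the ERCC channel medians, for Prdx2 with no median scaling, the authors' constants, the ERCC means and pixel medians, and for Duox1 with no median scaling and both ERCC scalings. The difference between fractions was not tested, since each fraction of a genotype was 1 sample.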

How the results depend on the processing

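The alternatives shift values by a constant per channel, recompute the signals, or change the spots and probes used; they are listed where they moved a value by more than its spot SD, and the cause was not tested. Genes are in the order Gsta4, Prdx2 and Duox1.

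No median scaling gave IP differences of -0.25, -0.0097 and -0.34, Sup differences of 0.46, -0.24 and -0.075 and abundance differences of 0.22, -0.18 and -0.19. The authors' constants gave control ratios of -1.03, -1.91 and -0.61, m6A differences of -1.18, -0.24 and -0.73, IP differences of -0.56, -0.32 and -0.65, abundance differences of 0.32, -0.13 and -0.17, and a Sup difference of -0.085 for Prdx2. The spots named SPINKEIN gave ratios of 0.20, -0.68 and 0.62, IP differences of -0.21, 0.027 and -0.30, m6A differences of -0.91 for Gsta4 and 0.033 for Prdx2, abundance differences of 0.28 for Gsta4 and -0.10 for Duox1, and a Sup difference of -0.0064 for Prdx2. ERCC channel medians gave ratios of -1.23, -2.11 and -0.82, m6A differences of -0.066, 0.88 and 0.39, IP differences of 0.52, 0.76 and 0.43, abundance differences of 0.57, 0.095 and 0.20, and Sup differences of 0.59 for Gsta4 and -0.12 for Prdx2. ERCC channel means gave ratios of 0.11, -0.78 and 0.52, IP differences of -0.31, -0.068 and -0.39, Sup differences of 0.44, -0.27 and -0.10 and abundance differences of 0.098, -0.19 and -0.27.

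Pixel medians gave Prdx2 an m6A difference of 0.12 and a Sup difference of 0.0095. Normexp gave ratios of -0.45, -1.34 and -0.093, m6A differences of -0.84 for Gsta4 and -0.15 for Prdx2, IP differences of -0.17 and -0.049 for the same genes, and Sup and abundance differences of 0.11 and 0.064 for Prdx2. Normexp with loess and Aquantile gave ratios of -0.45 for Gsta4 and -0.065 for Duox1, Sup and abundance differences of 0.54 and 0.31 for Gsta4, and m6A, IP, Sup and abundance differences of 0.36, 0.0068, -0.35 and -0.25 for Prdx2. Probes brighter than the median in all 4 signals gave Prdx2 a Sup difference of -0.091 and an abundance difference of -0.029. Measured from the median of all probes, the m6A difference of Gsta4 lay between -0.91 and -0.65 under these settings.

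At least 2-fold apart in the m6A, IP, Sup and abundance differences were 2315, 3457, 712 and 1577 usable probes. Normexp gave 1204, 1839, 292 and 794, and normexp with loess and Aquantile 1020, 1729, 215 and 771. A 1.5-fold rule gave 9940, 11476, 3362 and 5431. These counts are all over 43838 probes. No filter on dim probes gave 6525, 6580, 2851 and 2959, over 60669 probes. The brighter probes gave 840, 1386, 214 and 606, over 17844 probes. Counts over different numbers of probes cannot be compared directly. In the m6A and IP differences the authors' constants gave 5946 and 7145 and the ERCC channel medians 10607 and 10469; in abundance the ERCC means gave 2635. Of probes past 2-fold in the m6A difference 37.7% were higher in cKO, against 1.90% with the authors' constants, 11.1% with SPINKEIN, 98.8% with ERCC medians, 13.7% with normexp and 50.9% with loess and Aquantile. For abundance the share was 48.1%, against 26.0% with no scaling, 18.6%, 32.7% and 85.1% with the same 3 scalings and 19.7% with ERCC means. The median m6A difference moved by -0.48, -0.21 and 0.64 with those 3 scalings. No paired analysis was possible because each group had 1 sample, and for the same reason no replicate was left out. All spots of the 3 genes were well above background, and the dimmest, Duox1, had a spot SD of 0.21 beside its m6A difference of -0.25.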
